A study of Mus musculus with 8 samples.

Results

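The genes described here encode the helpers of the HSP70 system and the barrel-shaped chaperonins in mouse Th1 cells: DnaJ (J) proteins, nucleotide exchange factors, HSP60 with HSP10, and the subunits of TRiC (also called CCT). They were taken by gene symbol alone, as Dnaja, Dnajb and Dnajc genes, Cct2 to Cct8, Bag1 to Bag6 and genes of the Hspb, Hspd and Hspe series. Tcp1, Hspa2, Hspa4, Hspa4l, Hspa14 and Hspbp1 were added, and Dnajb1, Dnajb9, Dnajc3, Hspb1 and Bag3 were left out, which gave 77 of 33924 listed genes.

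C57BL/6 CD4 T cells were activated through CD3 and CD28 and grown into interferon-producing Th1 cells with IL-12 (2 ng/ml) and an antibody to IL-4 (5 µg/ml), conditions common to all 4 groups of 2 libraries. One experiment compared cells transduced with an shRNA against Pcbp1, an RNA-binding protein and iron chaperone, with cells carrying a scrambled hairpin, in total RNA depleted of rRNA. The other compared cells given ciclopirox olamine (CPX), an iron chelator, with cells given DMSO, in polyA RNA. How much CPX was given and for how long, when cells were taken after transduction and the hairpin sequence are not stated in the sources used here. Replicates carry numbers, and whether each stems from its own culture or animal is not stated. The p-values therefore cover the spread among these libraries alone, which may be technical.

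As background, J proteins bring unfolded clients to HSP70 and switch on its ATPase, and nucleotide exchange factors then let HSP70 release the client. HSP60 and its lid HSP10 form a folding chamber in the mitochondrial matrix, and TRiC forms one in the cytosol that folds actin and tubulin. Many of these genes are targets of heat shock factor 1 in stressed cells, while others serve translation, protein import or secretion all the time.

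Levels are given as RPM, a gene's value divided by its library total times 1e+06. The knockdown libraries held 14174293 to 15518303 counts, and those of the CPX experiment held 19193784 to 19662145 units of a rescaled table. Pcbp1 itself stood at 44.0 and 51.7 RPM with the scrambled hairpin and at 15.1 and 16.1 RPM with its own hairpin (log2 fold change -1.73, SE 0.12, edgeR, adjusted p = 3.18e-05). Pcbp1 was also lower with CPX, at 506 and 538 RPM with DMSO and 238 and 199 RPM with CPX (log2 -1.26, SE 0.20, limma, adjusted p = 0.00613). The 5 T cell markers Cd3e, Cd3g, Cd4, Cd28 and Thy1 were present in every library, summing to 709.5 to 1544 RPM. The CD8 T cell markers Cd8a and Cd8b1 summed to 90.5 and 92.0 RPM in replicate 1 of the scrambled and Pcbp1 hairpin groups and to 11.9 and 11.6 RPM in replicate 2. The T cell sum was 860 and 901 RPM with the scrambled hairpin and 727 and 709.5 RPM with the Pcbp1 hairpin. Its members moved apart. Cd3g (201 and 206 to 121 and 115 RPM) and Cd28 (395 and 424 to 255 and 253 RPM) were lower. Cd3e (39.0 and 43.0 to 79.1 and 82.9 RPM) and Cd4 (42.8 and 55.4 to 89.1 and 106 RPM) were higher. Thy1 overlapped (183 and 173 against 183 and 153 RPM). The 5 Th1 markers, of which Ifng made up most, summed to 50760 and 41299 RPM with the scrambled hairpin, 25180 and 19339 RPM with the Pcbp1 hairpin, 14303 and 24306 RPM with DMSO and 1258 and 5147 RPM with CPX. Both Th1 sums were lower in the treated groups, without overlap, as was Ifng. After the hairpin Stat4 was also lower (236 and 198 to 177 and 156 RPM). Tbx21 (41.3 and 36.4 to 58.1 and 46.9 RPM) and Il12rb2 (58.8 and 48.7 to 67.8 and 59.0 RPM) were higher. Cxcr3 overlapped (40.6 and 62.4 against 59.4 and 87.1 RPM). With CPX Stat4, Il12rb2 and Cxcr3 were lower too, and Tbx21 overlapped (56.8 and 137 against 84.4 and 95.2 RPM). The 3 dendritic cell markers summed to 2.95 and 3.22 RPM with DMSO and to 22.8 and 26.0 RPM with CPX, mostly Itgax, with Flt3 at 0.521 and 0.104 RPM with CPX. Of 4 macrophage markers 3 were matched, summing to 4.06 and 5.61 RPM with CPX and to at most 0.839 RPM elsewhere. With CPX this was mostly Emr1 (3.75 and 5.46 RPM), with Csf1r at 0.052 RPM in both libraries and Cd14 at 0.261 and 0.104 RPM. The matched markers of B cells and fibroblasts stayed under 5 RPM. The part of these markers in the results below was not tested, and in bulk RNA fewer cells of a type and less RNA per cell cannot be told apart.

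Of the 77 genes, 57 passed the filter of at least 1 RPM in at least 2 of 4 libraries in the knockdown experiment and 54 in the CPX experiment. Of the 57, 3 (Cct3-ps1, Dnajb13 and Dnajc12) passed in the knockdown only. The 20 that passed in neither never exceeded 0.564 RPM. They were Cct6b (the testis form of a TRiC subunit), Cct8l1, Dnaja1-ps, Dnajb3, Dnajb7, Dnajb8, Dnajc5b, Dnajc5g, Dnajc6, Dnajc22, Dnajc28, Hspb2, Hspb3, Hspb7, Hspb8, Hspb9, Hspe1-ps2, Hspe1-ps4, Hspe1-ps5 and Hspe1-ps6. No count was seen in any library for 4 of these (Dnaja1-ps, Dnajb8, Hspb3 and Hspe1-ps4). In the knockdown libraries a count of 0 allows up to 3 counts, or at most 0.212 RPM, for counting error only.

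Together the 77 genes took 0.959% and 0.977% of the scrambled totals, 1.02% and 1.03% with the Pcbp1 hairpin, 1.15% and 1.07% with DMSO, and 1.74% and 1.45% with CPX. The chaperonins made up most of this. The totals include the mitochondrial RNA mt-Rnr2, at 17.6% in both scrambled libraries and 19.9% and 19.3% with the Pcbp1 hairpin. It took 0.036% and 0.034% with DMSO and 0.204% and 0.151% with CPX. Shares and RPM are therefore not comparable between the 2 experiments. Per kilobase of transcript in the scrambled libraries, Cct5 was highest at 659 ± 1.32 RPM per kb (SD, n = 2), followed by Cct2 at 480 ± 19.8, Hspe1 at 439 ± 5.83, Tcp1 at 355 ± 2.39, Cct6a at 321 ± 5.04, Hspd1 at 288 ± 10.4 and Cct8 at 285 ± 3.67. Hspd1 and Cct8 did not differ beyond their spread. Cct7 was the lowest of the 8 expressed TRiC subunits, at 114 ± 4.98 RPM per kb. The lengths are those of the longest coding transcript of each gene in GENCODE M21, not the authors' models.

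After the Pcbp1 hairpin, 23 of the 57 genes tested rose and 14 fell (edgeR's quasi-likelihood test, adjusted p under 0.05 over all genes tested). Of all 11575 genes tested, 29.3% rose and 26.7% fell, so the share that fell was near the background and the share that rose was 40.4%. The median log2 fold change was 0.05, beside 0.00 over all genes. The J proteins contributed 17 of the rises and the TRiC subunits 4 of the falls. The plot of effects by role shows that every class with more than 2 tested members had values on both sides of 0.

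**Figure D1:**
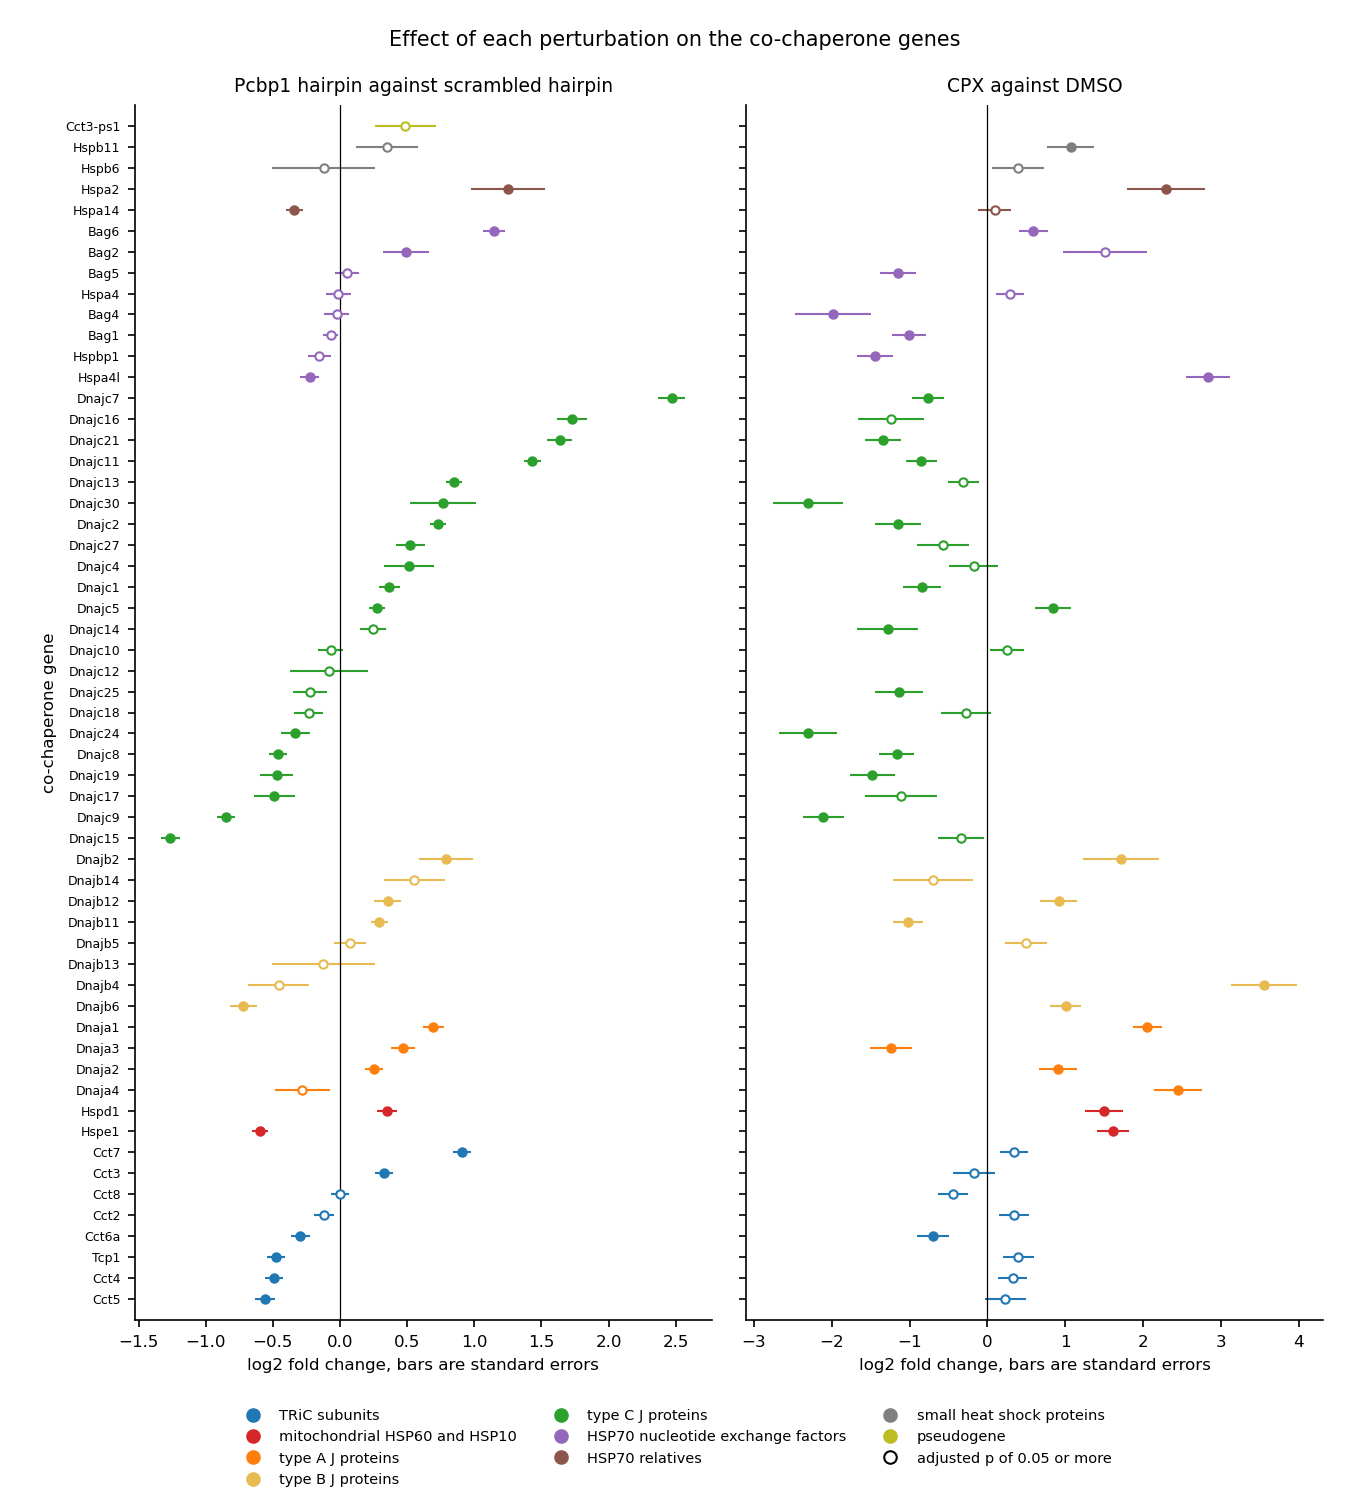
Log2 fold change (x axis, bars are standard errors) of each tested co-chaperone gene (y axis, grouped and coloured by role) for the Pcbp1 hairpin against the scrambled hairpin (left) and CPX against DMSO (right). Filled points passed an adjusted p of 0.05 and open points did not. The type C J proteins spread from -1.26 to 2.47 on the left and from -2.31 to 0.84 on the right.

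The rises were led by type C J proteins, which share only the J domain with the rest of the family. Dnajc7, a tetratricopeptide protein that binds both HSP70 and HSP90, stood at 14.0 and 12.1 RPM with the scrambled hairpin and at 80.1 and 76.5 RPM with the Pcbp1 hairpin. It rose 5.55-fold (log2 2.47, SE 0.10, edgeR, adjusted p = 8.58e-06), and its change ranked 25 by size among the 11575 genes. The groups were far apart, with replicates within a few RPM of each other. Dnajc21, a factor in the maturation of the large ribosomal subunit, went from 26.0 and 28.1 to 85.6 and 95.9 RPM (log2 1.64, SE 0.10, edgeR, adjusted p = 1.92e-05). Dnajc11, which sits at the mitochondrial outer membrane and supports cristae, went from 57.1 and 60.5 to 172 and 170.0 RPM (log2 1.43, SE 0.06, edgeR, adjusted p = 9.93e-06).

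Dnajc16, an ER-resident J protein, went from 7.62 and 8.17 to 28.2 and 28.1 RPM (log2 1.73, SE 0.11, edgeR, adjusted p = 2.81e-05). Dnajc13, an endosomal J protein that acts on clathrin coats and retrograde sorting, went from 82.9 and 84.4 to 165 and 159 RPM (log2 0.85, SE 0.06, edgeR, adjusted p = 3.38e-05). In each of these genes both hairpin libraries lay above both scrambled ones. Dnajc2, the J protein that works with Hspa14 at the ribosome exit tunnel, went from 129 and 123 to 223 and 226 RPM (log2 0.73, SE 0.06). Its partner Hspa14 moved the other way, from 145 and 142 to 127 and 117 RPM (log2 -0.34, SE 0.06, edgeR, adjusted p = 0.00281). The fall of Hspa14 was not called once transcript length and GC content were removed (log2 -0.02).

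Of the 22 type C genes tested, 11 rose and 6 fell, with a median of 0.26. Dnajc15, also called MCJ, a mitochondrial inner membrane J protein that restrains respiration, fell from 107 and 100.1 to 46.3 and 46.4 RPM. This was the largest fall among the 57 genes (log2 -1.26, SE 0.07, edgeR, adjusted p = 1.55e-05). Dnajc9, which hands histones H3 and H4 through the nucleus, fell from 77.3 and 78.2 to 46.2 and 46.7 RPM (log2 -0.85, SE 0.07, edgeR, adjusted p = 6.05e-05). Neither pair of groups overlapped. Dnajc19, part of the mitochondrial import motor, stood at 16.2 and 17.1 against 12.2 and 13.6 RPM (log2 -0.47), and Dnajc24, needed to make diphthamide on elongation factor 2, stood at 21.2 and 23.4 against 18.8 and 19.4 RPM (log2 -0.33). Both passed the test, but with length and GC content removed their values were 0.11 and 0.18. For Dnajc19 leaving out scrambled replicate 2 ended the call (adjusted p = 0.0654, edgeR), as did leaving out Pcbp1 hairpin replicate 1 (0.0873). For Dnajc24 the call ended without either of those libraries (0.18 and 0.14) and without Pcbp1 hairpin replicate 2 (0.0606). Dnajc17, a nuclear J protein, was called at -0.49 and lost the call when any 1 library was left out (adjusted p 0.0631 to 0.13, edgeR).

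By location, the 6 mitochondrial J proteins tested split into 4 that rose and 2 that fell (median 0.49). Of the 5 of the nucleus and ribosome, 2 rose and 3 fell. Of the 9 of the ER, 4 rose. Dnajb11, the ER J protein ERdj3 that serves the ER HSP70 BiP, was among the risers, at 107 and 113 against 149.9 and 141 RPM (log2 0.29, SE 0.06, edgeR, adjusted p = 0.00603).

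Among the type A proteins, the closest relatives of bacterial DnaJ, 3 of 4 rose. Dnaja1, a cytosolic one, went from 43.9 and 40.8 to 72.3 and 75.5 RPM (log2 0.70, SE 0.08, edgeR, adjusted p = 2.47e-04). Dnaja3, its mitochondrial counterpart Tid1, went from 55.5 and 54.4 to 76.4 and 87.5 RPM (log2 0.47, SE 0.09), and Dnaja2 from 237 and 258 to 315 and 320.4 RPM (log2 0.25, SE 0.07). Dnaja2 lost its call when scrambled replicate 1 was left out (adjusted p = 0.117, edgeR) and without Pcbp1 hairpin replicate 2 (0.073). Dnaja4 overlapped between groups, at 5.86 and 5.31 against 4.38 and 5.52 RPM.

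The type B proteins gave 3 rises and 1 fall among 8. The fall was Dnajb6, which keeps aggregation-prone proteins soluble, at 36.5 and 35.4 against 24.7 and 22.2 RPM (log2 -0.72, SE 0.10, edgeR, adjusted p = 6.36e-04). Dnajb2, a neuron-enriched J protein that binds ubiquitin, stood at 2.82 and 3.0 against 5.74 and 5.10 RPM (log2 0.79, SE 0.20, edgeR, adjusted p = 0.0125). This call at a low level was lost with DESeq2 (adjusted p = 0.0967). It was also lost without scrambled replicate 1 (0.0569, edgeR) and without Pcbp1 hairpin replicate 1 (0.0641).

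**Figure D2:**
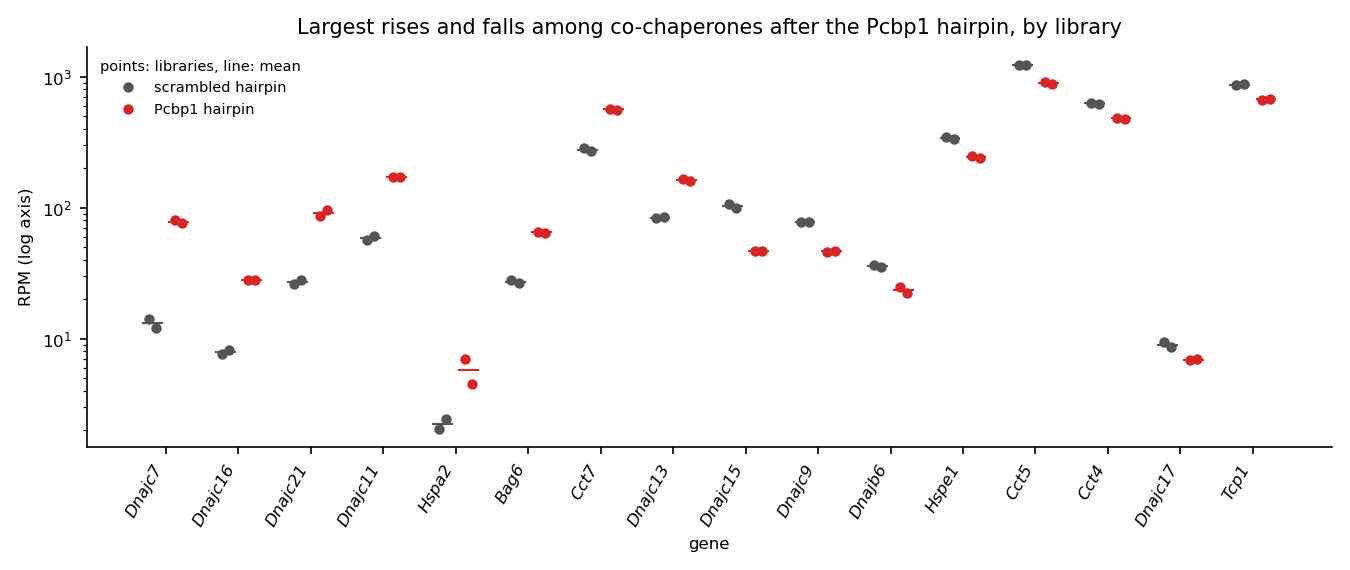
RPM (log axis) in each library (points, with the mean as a line) for the 8 largest rises (Dnajc7 to Dnajc13) and the 8 largest falls (Dnajc15 to Tcp1) after the Pcbp1 hairpin, grey for the scrambled hairpin and red for the Pcbp1 hairpin. The 2 groups do not overlap for any of the 16 genes, and Dnajc7 shows the widest gap, from 12.1 and 14.0 to 76.5 and 80.1 RPM.

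The nucleotide exchange factors, grouped with all BAG genes of the set, gave 2 rises and 1 fall among 8. One rise was Bag2, named after its values were seen, from 7.41 and 6.01 to 9.54 and 10.8 RPM (log2 0.49, SE 0.17, edgeR, adjusted p = 0.0429). Bag6, which shields newly made membrane proteins and directs misplaced ones to the proteasome, went from 27.8 and 26.6 to 65.5 and 64.3 RPM (log2 1.15, SE 0.08, edgeR, adjusted p = 3.62e-05). Hspa4, an HSP110-type factor, stood at 591 and 638 against 611 and 699.7 RPM (log2 -0.01), Bag1 at 122 and 117 against 123 and 121 RPM (-0.07), and Hspbp1 at 65.3 and 72.6 against 69.9 and 63.5 RPM (-0.15). These 3 overlapped between the groups. Hspa4l was called at -0.23 (89.9 and 96.4 against 88.1 and 83.2 RPM; edgeR, adjusted p = 0.0248). That call was lost with DESeq2 (0.0745), without scrambled replicate 2 (0.159, edgeR) and without Pcbp1 hairpin replicate 2 (0.0725, edgeR). Hspa2, an HSP70 best known from the testis, rose from 2.05 and 2.44 to 6.96 and 4.55 RPM (log2 1.25, SE 0.27, edgeR, adjusted p = 0.00616).

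The subunits of TRiC, which assemble in equal numbers, did not move together after the Pcbp1 hairpin. Cct7 rose from 286 and 269 to 563 and 560.2 RPM (log2 0.91, SE 0.07, edgeR, adjusted p = 3.65e-05) and Cct3 from 451 and 464 to 609.8 and 627 RPM (log2 0.33, SE 0.07, edgeR, adjusted p = 0.00463). Cct5 fell from 1222 and 1218 to 903 and 879 RPM (log2 -0.56, SE 0.07, edgeR, adjusted p = 4.48e-04). Cct4 (633 and 622 to 484 and 475 RPM; log2 -0.49), Tcp1 (863 and 872 to 665 and 677 RPM; -0.48) and Cct6a (779 and 797 to 685 and 696 RPM; -0.30) fell as well. Cct2 (912 and 967 against 934 and 932 RPM; -0.12) and Cct8 (676 and 688 against 727 and 742 RPM; 0.00) did not pass the test. Over the main fit and all alternatives Cct4 ran from -0.52 to -0.18, Tcp1 from -0.52 to -0.28 and Cct5 from -0.59 to -0.36. Cct7 ran from 0.87 to 1.02 and Cct3 from 0.28 to 0.53. The fold changes carry TMM scaling, which the RPM values do not, and the median of all genes, 0.00 in this fit, was 0.10 with limma on RPM without that scaling. For Cct6a leaving out scrambled replicate 2 ended the call (adjusted p = 0.0508, edgeR), and with length and GC content removed Cct6a was -0.10 and not called, while Cct2 at 0.19 (adjusted p = 0.0477, limma) and Cct8 at 0.43 (9.47e-04) were called as higher.

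The sum over the 8 subunits hardly moved, at 5822 and 5897 RPM with the scrambled hairpin and 5571 and 5589 RPM with the Pcbp1 hairpin. Its makeup did: Cct7 went from 4.91% and 4.56% of the sum to 10.1% and 10%, and Cct5 from 21% and 20.7% to 16.2% and 15.7%. Per kilobase the distance between these subunits narrowed, from 659 ± 1.32 and 114 ± 4.98 RPM per kb (SD, n = 2) for Cct5 and Cct7 to 481 ± 9.38 and 230.0 ± 0.718.

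HSP60 and HSP10 share one bidirectional promoter region and, after the Pcbp1 hairpin, moved apart. Hspd1, which encodes HSP60, rose from 679 and 715 to 947 and 967 RPM (log2 0.35, SE 0.07, edgeR, adjusted p = 0.00502). Hspe1, which encodes HSP10, fell from 343 and 337 to 246 and 239 RPM (log2 -0.59, SE 0.06, edgeR, adjusted p = 1.43e-04). The size of both effects depends on the processing. Over the main fit and all alternatives Hspe1 ran from -0.62 to -0.18 and Hspd1 from 0.30 to 0.58. The ratio of Hspe1 to Hspd1 in RPM was 0.505 and 0.471 with the scrambled hairpin and 0.260 and 0.247 with the Pcbp1 hairpin. With 2 libraries against 2, an exact permutation test of a ratio cannot give a p under 0.333. Processed pseudogenes exist for several chaperonin genes, and how reads that match several places were counted is not stated in the sources used here.

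**Figure D3:**
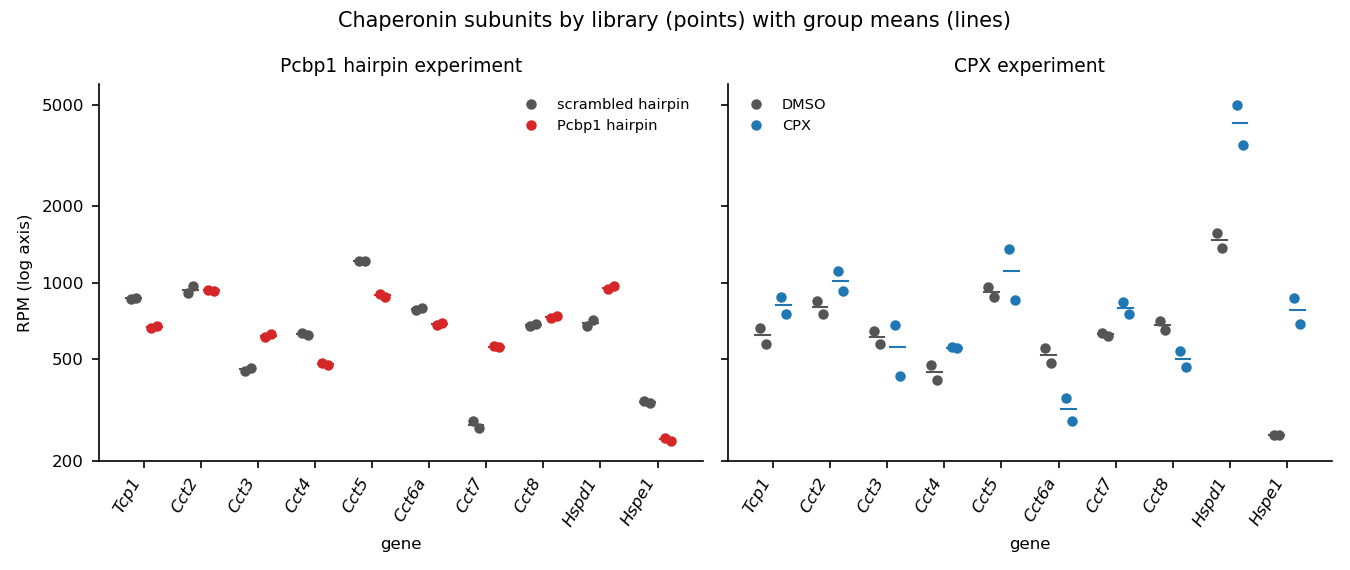
RPM (log axis) of the 8 expressed TRiC subunits, Hspd1 (HSP60) and Hspe1 (HSP10) in each library (points, with group means as lines), in the Pcbp1 hairpin experiment (left) and the CPX experiment (right). After the Pcbp1 hairpin (red) Cct7 rose to 563 and 560.2 RPM while Cct5 fell to 903 and 879 RPM; with CPX (blue) Hspd1 reached 4987 and 3458 RPM.

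The knockdown effect ran with transcript length over all genes tested (Spearman 0.36 over 11307 genes with a length, and 0.24 with GC content). Among the 57 tested here the values were 0.22 and 0.23, given as descriptions, since genes of one library share its RNA quality and depth. When both were removed, 24 rose and 8 fell. The part of length in the calls was not tested beyond this. The authors' deposited table gives an adjusted p for 56 of the genes and calls 18 up and 10 down, 50% against 43.6% of the 11443 genes it covers, and 28 of the 37 genes called here were called in both, with 0 opposite in sign.

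With CPX, 28 of the 54 genes tested had values past 2-fold, 25 of them called, as did 5209 of all 11466 genes. After the hairpin these counts were 7 of 57, all called, and 1629 of 11575. Of the 54, 14 rose and 19 fell (limma on log2(RPM + 0.5), adjusted p under 0.05). Of the 11466 genes tested, 19.9% rose and 24.8% fell. The medians were -0.23 for these genes and -0.12 for all genes, and with TMM scaling the median of all genes moved to 0.00 with 14 rises and 16 falls among the members. Fold changes on this scale understate the change of genes with low values. Type A and B J proteins gave 7 of the rises, and type C gave 12 of the falls.

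These calls rest on few libraries. Without DMSO replicate 1, 6 rose and 2 fell, and without DMSO replicate 2, 7 rose and 3 fell. The CPX replicates were the least alike (Pearson 0.954 on the log2 scale, against 0.985 to 0.993 in the other groups). Between them 9 of the 54 genes tested differed more than 2-fold. In those 2 libraries the stress-inducible Hspa1a and Hspa1b took 3.11% and 0.868% of the total. Of the 26 calls among the genes named by rule, 8 held under every alternative tried: Dnajb4, Dnaja4, Dnaja1, Hspa4l, Hspd1, Hspe1, Dnajc9 and Dnajc24. The other 18 were each lost without DMSO replicate 1 (limma, adjusted p 0.0579 to 0.347), and 16 of them, all but Dnajc30 and Hspa2, also without DMSO replicate 2 (0.0685 to 0.282). Hspa2 was lost as well without CPX replicate 1 (0.0774).

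The largest rise was that of Dnajb4, a cytosolic J protein also called HLJ1, from 1.17 and 1.64 RPM with DMSO to 15.6 and 30.1 RPM with CPX. It rose 11.7-fold on the log2(RPM + 0.5) scale (log2 3.55, SE 0.42, limma, adjusted p = 0.00336). The other type B proteins that rose included Dnajb6, from 124 and 129 to 236 and 275 RPM (log2 1.01, SE 0.20, limma, adjusted p = 0.0119), and Dnajb2, from 10.4 and 9.87 to 21.3 and 55.5 RPM (log2 1.71, SE 0.49, limma, adjusted p = 0.0357). In all 3 both CPX libraries were above both DMSO libraries. The ER protein Dnajb11 went the other way, from 185 and 183 to 87.8 and 92.9 RPM (log2 -1.02, SE 0.20, limma, adjusted p = 0.0108).

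Among type A proteins, Dnaja1 rose from 260.3 and 236 to 973 and 1098 RPM (log2 2.06, SE 0.19, limma, adjusted p = 0.00248). Dnaja4 rose from 11.7 and 16.0 to 65.6 and 90.8 RPM (log2 2.45, SE 0.31, limma, adjusted p = 0.00376). Dnaja2 rose from 372 and 353 to 825 and 562 RPM (log2 0.91, SE 0.24, limma, adjusted p = 0.0294). The 3 that rose are cytosolic. The mitochondrial Dnaja3 fell, from 112 and 96.7 to 36.6 and 52.1 RPM (log2 -1.24, SE 0.27, limma, adjusted p = 0.0151).

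Both components of the mitochondrial chaperonin rose. Hspd1 went from 1572 and 1373 to 4987 and 3458 RPM (log2 1.5, SE 0.24, limma, adjusted p = 0.00678). Hspe1 went from 253 RPM in both DMSO libraries to 869.7 and 691 RPM (log2 1.61, SE 0.20, limma, adjusted p = 0.00376). Their ratio was 0.161 and 0.184 with DMSO and 0.174 and 0.200 with CPX, so the ranges overlapped. The summed RPM of both genes went from 1826 and 1626 to 5856 and 4148.

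**Figure D4:**
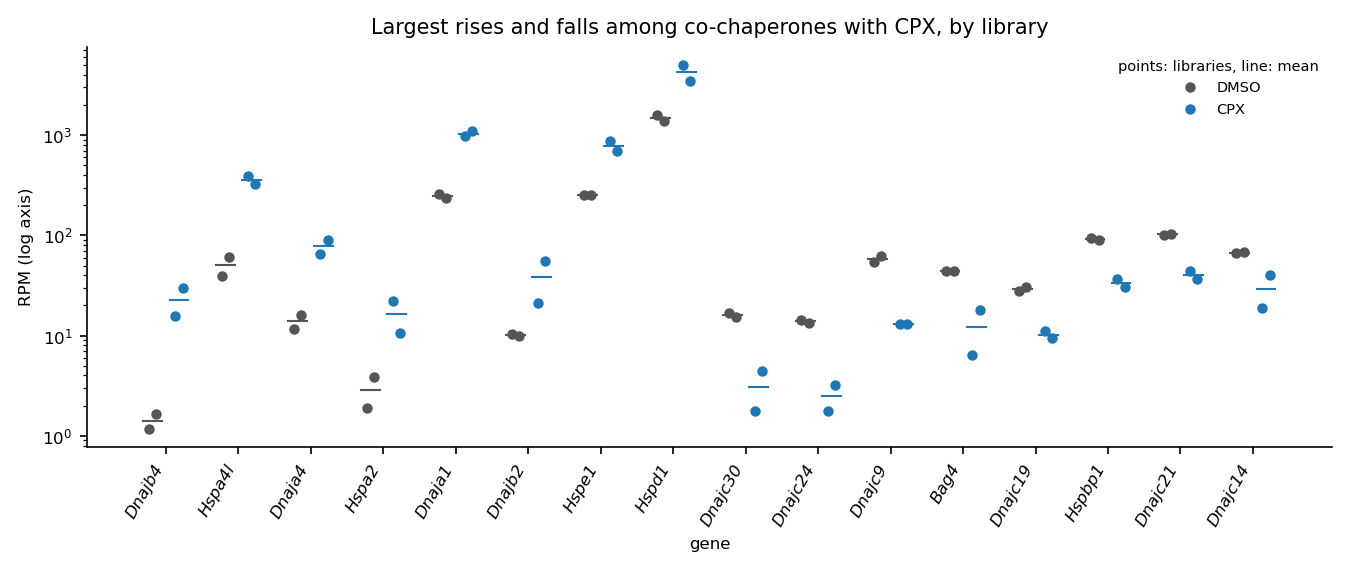
RPM (log axis) in each library (points, with the mean as a line) for the 8 largest rises (Dnajb4 to Hspd1) and the 8 largest falls (Dnajc30 to Dnajc14) with CPX, grey for DMSO and blue for CPX. The groups do not overlap for any of the 16 genes; Dnajb4 went from 1.17 and 1.64 to 15.6 and 30.1 RPM and Dnajc9 from 53.6 and 61.5 to 13 and 12.9 RPM.

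The upstream sequence of 4 genes that rose with CPX is shown because it holds, in capitals, units of the heat shock element, the inverted repeats of GAA that heat shock factors bind. The sequences are from RefSeq (GRCm38.p6), read 5′ to 3′ on the gene's strand, and cover the 120 bases before a start site: Hspe1 at chr1:55088028-55088147 (plus strand), Dnajb6 at chr5:29735778-29735897 (plus strand), Dnaja4 at chr9:54699439-54699558 (plus strand) and Dnajb4 at chr3:152193846-152193965 (minus strand). Capitals mark runs of at least 3 units in Hspe1 and Dnajb6 and pairs of units in Dnaja4 and Dnajb4. Dnaja4 and Dnajb4 each have 2 start sites with a window in the search described below, and for each only 1 of the 2 windows held a pair. The start shown for these genes was chosen because it holds the pair, and the stretch before the other start, without a pair, is not shown. Dnajb6 also has 2 windows, both with the run, and Hspe1 has 1.
Hspe1: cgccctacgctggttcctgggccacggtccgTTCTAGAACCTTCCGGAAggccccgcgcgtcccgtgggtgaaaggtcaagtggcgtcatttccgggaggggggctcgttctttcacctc
Dnajb6: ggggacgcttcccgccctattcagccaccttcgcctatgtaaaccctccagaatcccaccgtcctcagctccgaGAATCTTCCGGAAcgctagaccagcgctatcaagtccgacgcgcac
Dnaja4: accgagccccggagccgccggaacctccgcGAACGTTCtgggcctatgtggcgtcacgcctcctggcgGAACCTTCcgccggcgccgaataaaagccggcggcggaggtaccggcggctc
Dnajb4: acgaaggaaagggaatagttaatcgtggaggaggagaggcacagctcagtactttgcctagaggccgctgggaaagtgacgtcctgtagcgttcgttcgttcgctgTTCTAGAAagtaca

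The pattern searched was TTCNNGAANNTTC on either strand, in windows from 250 bases before to 50 after each start site. RefSeq windows were matched for 60 of the 77 genes, and 0.603% of all 32851 windows held the pattern. Among the members it was found for Hspe1, Hspd1 and Dnajb6. The element of Hspe1 and Hspd1 is the same stretch of DNA, read on opposite strands, 89 to 72 bases before the start of Hspe1 and 144 to 127 bases before a start of Hspd1. In Dnajb6 it lies 46 to 34 bases before the first start. All 3 genes are among the 13 CPX risers with a window, with Hspe1 and Hspd1 holding it in the same stretch. None of the 15 fallers or 19 uncalled genes with a window held the pattern. Only 179 of all 27025 genes with a window hold it, so groups this small would mostly hold none, and the absence sets nothing apart.

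The shorter pair of units, TTCNNGAA or GAANNTTC, overlaps the longer pattern and is common, present in 15.1% of all windows. Counted by gene, as below, 4587 of 27025 genes had the pair in at least 1 window. The pair was found for 6 of the 13 risers, 1 of the 15 fallers and 5 of the 19 uncalled genes. A match describes letters only, and no binding was measured. Of the 3 genes with the longer pattern, Dnajb6 and Hspe1 fell after the Pcbp1 hairpin and Hspd1 rose.

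Of the cytosolic chaperonin, 1 of 8 subunits passed this threshold. Cct6a fell from 555 and 482 to 352 and 286 RPM (log2 -0.70, SE 0.21, limma, adjusted p = 0.0393), a call that was lost with TMM scaling (adjusted p = 0.111, limma) and without CPX replicate 2 (0.0744). For the other 7 the values ran from -0.44 (Cct8, SE 0.19) to 0.40 (Tcp1, SE 0.20), none past the threshold. In 1 fit of all 8 libraries, which pools the spread of both experiments, Tcp1, Cct4, Cct7 and Cct8 passed with these values (limma, adjusted p 0.0157 to 0.0407). Cct7 stood at 637 and 616 against 838 and 757 RPM, and Cct5 at 963 and 879 against 1359.8 and 858 RPM. The TRiC sum was 5495 and 4957 RPM with DMSO and 6323 and 5038 RPM with CPX, which overlap.

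Of the type C J proteins, 12 of 21 fell and 1 rose, with a median of -1.12 beside -0.12 for all genes. Dnajc9 fell from 53.6 and 61.5 to 13 and 12.9 RPM (log2 -2.11, SE 0.26, limma, adjusted p = 0.00358). Dnajc24 fell from 14.4 and 13.2 to 1.77 and 3.22 RPM (log2 -2.30, SE 0.37, limma, adjusted p = 0.00667). Both kept their calls with any 1 library left out. Dnajc30, which associates with the mitochondrial ATP synthase, fell from 16.8 and 15.3 to 1.77 and 4.42 RPM (log2 -2.31, SE 0.45, limma, adjusted p = 0.0115). Dnajc19 fell from 28.0 and 30.3 to 11.0 and 9.36 RPM (log2 -1.48, SE 0.28, limma, adjusted p = 0.011).

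The J proteins linked to ribosomes fell with CPX, the opposite of their direction after the hairpin. Dnajc21 went from 102 and 103 to 44.4 and 36.3 RPM (log2 -1.34, SE 0.23, limma, adjusted p = 0.00793) and Dnajc2 from 243 and 229 to 82.1 and 138 RPM (log2 -1.14, SE 0.29, limma, adjusted p = 0.0265). Hspa14, the partner of Dnajc2, overlapped between groups at 139 and 164 against 148 and 176 RPM. Dnajc7 fell from 193 and 182 to 119 and 103 RPM (log2 -0.76, SE 0.20, limma, adjusted p = 0.0296), a call lost with TMM scaling (0.0692). Dnajc11 fell from 188 and 186 to 108 and 99.2 RPM (-0.85, SE 0.20, limma, adjusted p = 0.0188), and Dnajc14, an ER J protein, from 66.5 and 67.7 to 18.7 and 39.8 RPM (-1.28, SE 0.39, limma, adjusted p = 0.0444). Dnajc15, the largest fall after the hairpin, overlapped at 53.0 and 77.2 against 58.4 and 43.6 RPM.

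By location, 4 of the 6 mitochondrial J proteins fell, as did 4 of the 5 of nucleus and ribosome, and of the 9 of the ER 4 fell and 1 rose. All 11 values of the first 2 groups were below 0. The medians were -1.05, -1.17 and -0.84.

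The exchange factors and BAG genes divided. Hspa4l, the HSP110-type factor APG-1, rose from 39.7 and 61.2 to 392 and 323 RPM (log2 2.84, SE 0.28, limma, adjusted p = 0.00262), while its close relative Hspa4 stood at 591 and 550.4 against 705 and 689 RPM without passing the test (log2 0.29, SE 0.18). Bag6 rose from 176 and 185 to 273 and 272 RPM (0.59, SE 0.19, limma, adjusted p = 0.0471), a call lost with length and GC content removed (0.35, adjusted p = 0.156). Bag2 was higher as well, at 3.97 and 6.24 against 25.0 and 9.15 RPM, without passing the test (1.51, SE 0.54, limma, adjusted p = 0.069). The authors' deposited table calls Bag2 higher (1.71, DESeq2, adjusted p = 0.0035). The BAG genes called other than Bag6 fell. Bag4, a BAG protein that binds death-domain receptors, went from 43.8 and 44.5 to 6.46 and 17.8 RPM (-1.98, SE 0.49, limma, adjusted p = 0.0237), and Bag1 from 125 and 120.5 to 65.4 and 56.4 RPM (-1.01, SE 0.21, limma, adjusted p = 0.0147). Hspbp1 fell from 93.5 and 90.3 to 36.5 and 30.8 RPM (-1.44, SE 0.23, limma, adjusted p = 0.00657). Hspa2 rose from 1.88 and 3.89 to 22.1 and 10.7 RPM (2.30, SE 0.50, limma, adjusted p = 0.016). Of the small heat shock proteins tested, Hspb11, an intraflagellar transport protein despite its name and named here after its values were seen, rose (1.07, SE 0.31) and Hspb6 did not pass.

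The authors' deposited table calls 14 up and 18 down among 61 genes with an adjusted p, 52.5% against 41.3% of its 15791 genes. Of the 33 called here, 30 were called in both, with 0 opposite in sign.

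The 2 experiments share no library. Across the 54 genes tested in both, the correlation of the effects was near 0 (Pearson -0.05 and Spearman -0.01 across genes, which share libraries and so are no replicates; -0.02 and -0.02 over all 10430 genes). By call, 8 genes rose in both, 14.8% of the 54 against 4.48% of all genes. These 8 are 8 of the 23 hairpin risers and 8 of the 14 CPX risers. They were Dnaja1, Dnaja2, Dnajb2, Hspa2, Hspd1, Bag6 and, named after their values were seen, Dnajb12 and Dnajc5. The CPX call for Bag6 was lost with length and GC content removed, as was the hairpin call for Dnajc5 (-0.02). Another 5 of the 54 fell in both, beside 768 of all 10430 genes, so this share was near that of all genes. They were Dnajc9, Dnajc19, Dnajc24, Cct6a and, named after its values were seen, Dnajc8. The hairpin falls of Dnajc19 and Dnajc24 were above 0 with length and GC content removed.

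Opposite calls were seen too. A rise after the hairpin and a fall with CPX was seen for 8 of the 54 genes, beside 1068 of all 10430. The 8 were Dnaja3, Dnajb11, Dnajc2, Dnajc7, Dnajc11, Dnajc21, Dnajc30 and Dnajc1, the last named after its values were seen. The hairpin call for Dnajc30 (3.88 and 2.51 to 6.25 and 5.45 RPM; log2 0.77, edgeR, adjusted p = 0.0306) was lost without scrambled replicate 2 or either hairpin replicate. The reverse was seen for 3 of the 54, Dnajb6, Hspa4l and Hspe1, beside 306 of all 10430. Whether the shares with opposite calls differ from those of all genes was not tested. The plot of both effects places these groups in opposite quadrants.

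**Figure D5:**
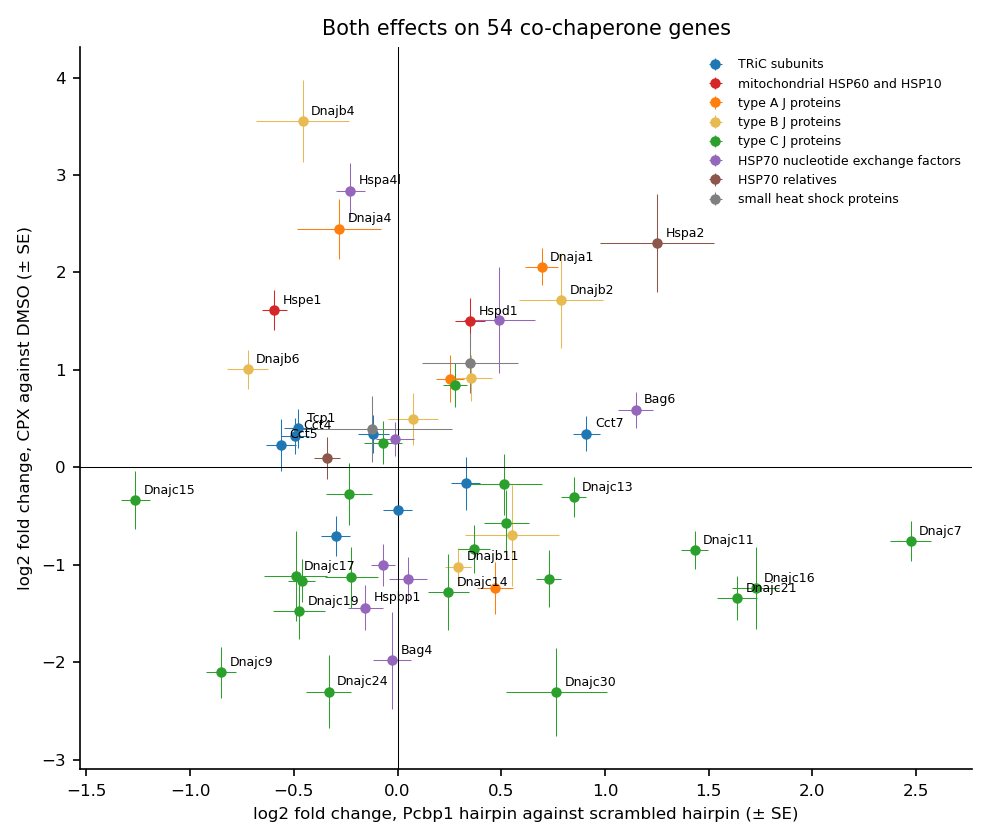
Log2 fold change after the Pcbp1 hairpin (x axis) against that with CPX (y axis) for the 54 genes tested in both experiments, with standard errors as bars and colours by role. Type C J proteins lie mostly below 0 on the y axis; Dnajc7 lies at 2.47 and -0.76, and Dnajb4 at -0.46 and 3.55.

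The difference itself, the hairpin effect minus the CPX effect, was tested in 1 limma fit of all 8 libraries. It was higher for 24 and lower for 9 of the 54 genes, against 35.2% and 16.1% of all 10430 genes, and the median of all genes was 0.40. With TMM scaling that median was 0.04, and 18 of the 54 were higher and 18 lower, so the split of the calls depends on the scaling. Of the 28 called differences among genes named by rule, 22 held under every alternative. Those that did not were Bag4, Bag6, Dnajc14, Cct7, Cct8 and Hspd1.

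For type C J proteins the difference was higher for 15 of 21, with 18 of 21 values above 0. The 1 lower value with an unadjusted p under 0.05 (limma) was that of Dnajc15, -0.81, which was called with TMM scaling (-1.19). It was 3.30 for Dnajc7 (SE 0.20, limma, adjusted p = 7.05e-05), 3.07 for Dnajc21 (SE 0.21, 9.05e-05), 2.38 for Dnajc11 (SE 0.16, 8.63e-05), 1.26 for Dnajc13 (SE 0.18, 0.00119) and 1.42 for the type B protein Dnajb11 (SE 0.16, 4.86e-04). On the other side it was -2.10 for Hspe1 (SE 0.19, limma, adjusted p = 1.99e-04), -2.96 for Hspa4l (SE 0.30, 3.01e-04), -1.61 for Dnajb6 (SE 0.19, 5.92e-04), -3.86 for Dnajb4 (SE 0.49, 7.69e-04) and -2.61 for Dnaja4 (SE 0.35, 9.57e-04). These 10 differences kept their calls with TMM scaling. Within TRiC it was lower for Tcp1 (-0.77) and Cct4 (-0.71) and higher for Cct7 (0.67) and Cct8 (0.55), the last 2 not called with TMM scaling (0.29 and 0.17). The 2 experiments differ in RNA selection, which cannot be told apart from the perturbation in this contrast.

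The partners of these genes were followed through lists of the wider pathway. Over all genes tested 29.3% rose and 26.7% fell after the hairpin, and 19.9% and 24.8% with CPX, and some of the counts below lie near these shares. The calls of these pathway genes were not followed through the alternatives, so how far they depend on the processing or on 1 library was not tested. In a list of HSP70 and HSP90 genes, the heat shock factors Hsf1 and Hsf2 and the inducible co-chaperones left out of the set above, 8 of 16 rose and 5 fell after the hairpin, led by Hsp90ab1, the constitutive cytosolic HSP90 (1057 and 1177 to 4027 and 4467 RPM; log2 1.82, edgeR, adjusted p = 1.86e-05), and Hspa9, the mitochondrial HSP70 (529 and 507 to 1087 and 1160.4 RPM; log2 1.01). Among the falls were Dnajc3 (-0.82), Hspa13 (-0.80) and Dnajb9 (-0.60), 3 proteins of the ER. With CPX 11 of 18 rose and 4 fell. The inducible HSP70 genes stood under 6 RPM with DMSO, and Hspa1b went from 5.70 and 5.93 to 16683 and 4997 RPM with CPX and Hspa1a from 3.81 and 3.73 to 14412 and 3681 RPM. Hsph1, the HSP110 exchange factor, rose from 675 and 611 to 5203 and 4718 RPM (log2 2.95), while Trap1, the mitochondrial HSP90, fell (-1.41), as did Hsf1 (-1.32) and Hsf2 (-1.17).

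HSP90 co-chaperones rose in 10 and fell in 4 of 20 after the hairpin, and rose in 7 and fell in 4 with CPX. Fkbp4, an immunophilin of steroid receptor complexes, rose after the hairpin (63.4 and 64.4 to 183 and 201 RPM; log2 1.48) and fell with CPX (303 and 312 to 103 and 141 RPM; -1.35). Chordc1 did the reverse, at -0.48 after the hairpin and 2.85 with CPX (139.7 and 121 to 1044 and 849 RPM).

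Prefoldin, which delivers clients to TRiC, and the tubulin cofactors gave 4 rises and 8 falls among 15 after the hairpin and 1 rise and 6 falls with CPX. Pfdn2 rose after the hairpin (7.41 and 7.54 to 26.7 and 26.8 RPM; log2 1.73) while Pfdn5 (-0.85), Vbp1 (-0.93) and the TRiC regulator Txndc9 (-1.02) fell, so prefoldin subunits, like those of TRiC, moved apart. With CPX Pfdn2 (114 in both libraries to 19.6 and 24.3 RPM; -2.36) and Pfdn4 (-2.09) fell.

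The list of mitochondrial import, HSP70 motor and matrix proteases gave 5 falls among 13 after the hairpin, among them Tomm20, an import receptor of the outer membrane (-0.72), and Grpel1, the exchange factor of mitochondrial HSP70 (147 and 144 to 100.4 and 98.5 RPM; -0.66). With CPX 7 fell, among them Grpel2 (40.3 and 42.2 to 3.23 and 6.96 RPM; -2.98), Clpp (-1.80) and Timm44 (-1.22). The single rise was Hscb, the J protein of iron-sulfur cluster assembly, from 7.12 and 8.19 to 21.4 and 13.9 RPM (log2 1.13, SE 0.35, limma, adjusted p = 0.0449).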

How the data were processed

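RNA from 8 libraries in 4 groups of 2 was analysed from the authors' tables. Named in the submitters' processing notes, without versions or roles, are STAR, HTSeq, cutadapt, DESeq and the build mm9. The deposited values of the knockdown libraries are raw counts per gene. Those of the CPX experiment were deposited as a score, rescaled and rounded, so depth in reads is not exact there. Against the authors' mean signals, a unit is 1.97 normalised reads on average over the 4 libraries. Whether all 4 were divided by the same factor was not tested. The Wald statistic in the authors' tables is also a score and was not used. The deposited file calls both RPM, a unit the values contradict. The result tables that the authors deposited give, per the file headers, a mean signal of normalised counts, log2 fold changes and p-values.

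In the table of libraries, gene labels were shifted after 1 constant line. Lines with a value of at least 10 were matched to genes by the authors' mean signals: 14455 of 14805 matched 1 gene, and 1 of the 7247 after the constant line carried its own label. Of the 77 genes only Tcp1 lies after that line, as do Pcbp1 and the markers and pathway genes that follow Ins1.

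RPM was computed over library totals without the constant line. Counts were tested with edgeR 4.0.16 (TMM, quasi-likelihood), and CPX and the difference between effects with limma 3.58.1 on log2(RPM + 0.5), in R 4.3.3, with Benjamini-Hochberg adjustment over all genes tested. Called means an adjusted p under 0.05. For edgeR the SE was worked back from log2 fold change and F statistic. The fits were tested on simulated data. DESeq2 1.42.0, other scalings, filters and pseudocounts, the replicate block and leaving out each library were alternatives. Transcript length and GC content taken out of each library, and 1 fit of all 8 libraries, were added after seeing the data.

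The genes and lists were chosen with earlier results of these data known. Genes named are the TRiC subunits, Hspd1, Hspe1, Hspa4, Hspa4l, Hspa14, Hspbp1, Bag1, Bag6 and 11 J proteins (Dnaja1, Dnaja2, Dnaja3, Dnajb6, Dnajb11, Dnajc2, Dnajc7, Dnajc15, Dnajc19, Dnajc21, Dnajc24 by role), with the 8 largest rises and falls per experiment (called, no overlap of groups, at least 5 RPM on average in the higher group), the 5 smallest p-values per direction for the difference, and up to 3 per direction and pathway list. Dnaja4, Dnajb2, Dnajb4, Dnajc9, Dnajc11, Dnajc13, Dnajc14, Dnajc16, Dnajc17, Dnajc30, Bag4 and Hspa2 came in by size of change.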

Additional observations from a re-analysis of the deposited data

Results flagged for a closer look

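For 28 named genes the effect of the Pcbp1 hairpin differed from that of CPX in the test of the difference (limma, hairpin effect minus CPX effect, log2, adjusted p under 0.05), in a contrast where RNA selection differs between the experiments. The difference was above 0 for J proteins of type C, at 3.3 for Dnajc7, 3.11 for Dnajc30, 3.07 for Dnajc21, 3.01 for Dnajc16, 2.38 for Dnajc11, 2.08 for Dnajc24, 1.98 for Dnajc2, 1.63 for Dnajc14, 1.37 for Dnajc9, 1.26 for Dnajc13 and 1.12 for Dnajc19. It was also above 0 for the type A and B proteins Dnaja3 (1.81) and Dnajb11 (1.42) and for the TRiC subunits Cct7 (0.67) and Cct8 (0.548). In the group of exchange factors and BAG genes it was above 0 for Bag4 (2.06), Hspbp1 (1.39), Bag1 (1.04) and Bag6 (0.648). Of the genes above, Bag4, Bag6, Dnajc14, Cct7 and Cct8 did not keep their calls under every alternative. With TMM scaling Bag6 was 0.27 and not called.

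The difference was below 0 for Dnajb4 (-3.86), Hspa4l (-2.96), Dnaja4 (-2.61), Dnajb6 (-1.61) and Dnaja1 (-1.26), and for the chaperonin genes Hspe1 (-2.1), Hspd1 (-1.04), Tcp1 (-0.769) and Cct4 (-0.712). Among these, only the call for Hspd1 did not hold under every alternative. Dnajc9 fell in both experiments, and Dnaja1 and Hspd1 rose in both. Dnajc24 and Dnajc19 were called as falls in both, but their hairpin values were 0.18 and 0.11 with length and GC content removed.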

How the results depend on the processing

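For the hairpin, leaving out 1 library gave 19 to 21 rises and 10 to 13 falls. For CPX it gave 6 to 15 rises and 2 to 20 falls, the lowest without DMSO replicate 1 (6 and 2) or DMSO replicate 2 (7 and 3), where the lone DMSO library is assumed to vary like the CPX libraries. For the difference it gave 17 to 29 higher and 8 to 15 lower, with 15 lower without CPX replicate 2. TMM scaling gave 18 lower differences. With length and GC content removed, 8 genes fell after the hairpin, and in 1 fit of all 8 libraries 10 rose and 5 fell after the hairpin and 18 rose and 22 fell with CPX.

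Replicate numbers were shared between groups, but 2 pairs per experiment are too few to show that they pair the samples. Across genes tested, replicate 1 minus replicate 2 correlated between the control and treated group at 0.289 (hairpin) and 0.101 (CPX). In the knockdown Cd8a was 63.8 and 67.1 RPM in replicate 1 of both groups and 6.49 and 6.92 RPM in replicate 2, a hint from the data, not from the design, that equal numbers belong together. With the replicate block, 25 rose and 14 fell after the hairpin, 14 rose and 20 fell with CPX, and 26 differences were higher and 10 lower. Among named genes the block ended 1 call, that of Bag6 with CPX (adjusted p = 0.0653, limma), and added those of Dnajc14 after the hairpin, Dnajc16 with CPX and Cct5 and Cct6a for the difference.

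Among called genes, 3 changed sign, all after the hairpin with length and GC content removed: Dnajc19 (0.11), Dnajc24 (0.18) and Dnajc5 (-0.02), the last named after its values were seen. That setting also gave Cct2 0.19, Dnajb4 0.24, Bag1 0.15 and Bag4 0.026. Cct8 after the hairpin was -0.014 with DESeq2 and with median ratio scaling, -0.011 with no filter, -0.026 with a filter of 5 RPM, and -0.045 to 0.027 with 1 library left out. Hspa4 was 0.091 with limma and in 1 fit of all libraries, and -0.15 to 0.093 with 1 library left out. Bag1 was 0.036 and Bag4 0.081 with limma and in 1 fit, and Bag4 ran from -0.078 to 0.027 with 1 library left out. With CPX, leaving out 1 library gave -0.50 to 0.17 for Cct3, -0.10 to 0.56 for Cct5 and -0.028 to 0.22 for Hspa14. The cause of these changes was not tested. Of 1441 recomputed values of named genes, 1265 kept direction and call. Under all alternatives 15 of 30 hairpin calls, 8 of 26 CPX calls and 22 of 28 differences were kept. With 2 libraries a group, differences under the spread of those libraries were not detectable, and the rounding of the CPX table limits genes of a few units.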
